A study of Mus musculus with 144 samples.

Results

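The transcripts described here are 8 of the 55364 genes measured, taken by name: the class I heavy chains H2-K1 and H2-D1, their light chain B2m, the peptide transporter subunits Tap1 and Tap2, the loading factor Tapbp, and the immunoproteasome subunits Psmb8 and Psmb9. The cells, labelled as microglia, came singly from retinas of Iba1-EGFP mice by fluorescence sorting. Iba1-EGFP is a reporter strain in which microglia carry a green fluorescent protein, as can other macrophages. The groups were PBS-treated mice (10 to 14 weeks old), mice treated with 1 mg/kg ripasudil, the low dose (14 weeks old), and mice treated with 10 mg/kg ripasudil, the high dose (12 weeks old), with 48 cells each. Ripasudil is a small-molecule kinase inhibitor. Each of 3 plates held 16 cells of each group in a block of wells of its own, so neither age nor well position can be told apart from dose. The series concerns retinal microglia after damage to the optic nerve, but the labels did not say whether these eyes had been injured, by which route ripasudil was given or which animal a cell came from.

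MHC class I molecules present peptides from a cell's own proteins to CD8 T cells. Interferon exchanges proteasome subunits for Psmb8 and Psmb9, which alters where proteins are cut. Tap1 and Tap2 form the pump that moves the peptides into the endoplasmic reticulum, Tapbp (tapasin) holds the empty heavy chain at the pump, and the heavy chain leaves for the surface only when bound to B2m. The pathway is known to rise in microglia after nerve injury, in ageing and under interferon.

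Values are FPKM, a level per length of gene and per number of assigned reads, so that genes and cells of unequal size can be set side by side. A gene counted as detected from an FPKM of 1 upwards. After 4 cells with under 1000 detected genes were left out, 140 remained (46 PBS, 47 at 1 mg/kg, 47 at 10 mg/kg), with 30204 to 4668732 assigned reads per cell. Of 10 microglial markers, Csf1r was detected in 100% of these cells, Cx3cr1 in 95.7%, Tmem119 in 88.6%, P2ry12 in 77.9%, Fcrls in 59.3% and Sall1, the least frequent, in 23.6%. At least 3 of 10 rod photoreceptor markers were found in 6 PBS, 7 low-dose and 11 high-dose cells. Averaged over every cell of a group, their summed FPKM was 12.98 at PBS, 264 at the low and 883 at the high dose. At least 3 of 8 neutrophil markers were found in 10 PBS, 8 low-dose and 8 high-dose cells. For 5 border macrophage markers these were 3, 2 and 3 cells, and for 6 Muller glia markers 3, 3 and 4. The median number of detected genes was 3143 in PBS, 2418 in 1 mg/kg and 2264 in 10 mg/kg cells. Because cells are not replicates and no animal was named, each group was 1 sample. No test was made, no difference had a replicate check, and all intervals cover counting error only.

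Of the promoters of these genes, the 4 that hold a match to an interferon or NF-kB motif are shown, since they show what the genes have in common and where they differ. The sequences are RefSeq's, of build GRCm38.p6, from 250 bases before to 50 after the annotated start, written in the direction of transcription. Capitals mark matches to the interferon-stimulated response element (GAAA, any 2 bases, GAAA), the gamma-interferon activated sequence (TTCNNNGAA) or the NF-kB motif.

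H2-K1 promoter, chr17:34000298-34000597, minus strand: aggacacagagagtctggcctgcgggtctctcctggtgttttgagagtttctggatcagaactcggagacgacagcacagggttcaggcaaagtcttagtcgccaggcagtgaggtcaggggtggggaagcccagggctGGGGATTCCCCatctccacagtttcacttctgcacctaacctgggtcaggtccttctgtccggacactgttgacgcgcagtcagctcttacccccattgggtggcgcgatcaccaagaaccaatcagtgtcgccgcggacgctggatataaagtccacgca

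H2-D1 promoter, chr17:35262844-35263143, plus strand: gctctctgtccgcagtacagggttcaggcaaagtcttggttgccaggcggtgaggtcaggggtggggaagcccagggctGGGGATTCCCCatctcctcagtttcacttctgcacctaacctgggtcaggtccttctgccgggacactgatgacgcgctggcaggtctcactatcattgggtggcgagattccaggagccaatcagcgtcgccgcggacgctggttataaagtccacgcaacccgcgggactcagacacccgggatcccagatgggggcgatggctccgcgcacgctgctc

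B2m promoter, chr2:122147437-122147736, plus strand: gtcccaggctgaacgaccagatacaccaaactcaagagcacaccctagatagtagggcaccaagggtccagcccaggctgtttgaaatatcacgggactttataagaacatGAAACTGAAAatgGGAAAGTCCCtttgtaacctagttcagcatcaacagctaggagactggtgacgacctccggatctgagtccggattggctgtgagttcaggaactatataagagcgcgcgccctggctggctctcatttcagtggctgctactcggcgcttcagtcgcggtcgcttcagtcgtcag

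Psmb8 promoter, chr17:34197945-34198244, plus strand: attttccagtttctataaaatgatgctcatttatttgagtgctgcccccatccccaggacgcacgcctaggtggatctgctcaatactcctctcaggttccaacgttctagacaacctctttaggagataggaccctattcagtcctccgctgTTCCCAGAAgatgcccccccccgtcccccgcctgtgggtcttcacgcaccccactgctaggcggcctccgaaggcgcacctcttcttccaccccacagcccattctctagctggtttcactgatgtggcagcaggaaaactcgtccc

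H2-K1 and H2-D1 carried the same block GGGGATTCCCC, in which 2 overlapping NF-kB matches read on both strands. It began at position -111 in H2-K1 and -171 in H2-D1, counted from the annotated start. A second annotated start of H2-K1 placed it at -125. B2m had both an interferon-stimulated response element (GAAACTGAAA) from -139 and an NF-kB match from -126. Psmb8 had a gamma-interferon activated sequence (TTCCCAGAA) from -97. On either strand, the response element was found in 3.44% of 32851 RefSeq windows of the same length, the activated sequence in 8.3% and the NF-kB motif in 8.46%. The windows of Tap1, Tapbp and Psmb9 had none of these letters but held the common CCAAT (37.4% of windows) and GGGCGG (35.7%). CCAAT also stood in the windows of H2-K1, H2-D1 and B2m. A match describes the letters and does not show that a factor binds there. Only exact letters were searched, so a window without a match can still hold a variant of the motif.

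Of the 8 genes, 7 lie in the MHC on chromosome 17, and B2m is on chromosome 2 at 122147686 to 122153083 (GRCm38.p6). Tapbp (33915899 to 33929292) and H2-K1 (33996017 to 34000347) lie at one end, and H2-D1 (35262730 to 35267499) at the other. Between them, Psmb9 (34181987 to 34187764), Tap1 (34187553 to 34197225), Psmb8 (34197721 to 34201454) and Tap2 (34203527 to 34216321) form a tight cluster. Psmb9 and Tap1 point away from each other and overlap by 212 bases in these gene coordinates. Their promoter windows, which are placed on RefSeq starts instead, share 275 of 300 bases. Tap1 ends 495 bases before Psmb8 starts, and 2072 bases separate Psmb8 from Tap2. Tap2 and Psmb8 also overlap the antisense gene Gm20496, and Tapbp overlaps Zbtb22 and Gm19412. The use of strand in counting was not given, so reads in these overlaps cannot be assigned with certainty.

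Some reads of the heavy chains are hard to tell apart from each other and from other class I genes, since part of the sequence is shared. The coding sequences of H2-K1 (1110 bases) and H2-D1 (1089 bases) were identical at 91.48% of 1080 aligned positions, with 91 identical bases in their longest shared run. Of the 50-base words in the H2-K1 transcripts, 9.63% also occurred in other genes, with 5.18% in H2-Q10 and 4.08% in H2-D1. Of those of H2-D1, 12.8% did so, with 5.87% in H2-Q1 and 5.44% in H2-K1. Tapbp had the highest share of such words (23.2%), most of them in Gm19412, and Tap1 and Psmb9 shared 163 words, against 141 for the heavy chains. The 90-base stretch in which they differed most had 17 mismatches, shown here in capitals because it is where reads could best separate the genes.

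H2-K1 coding bases 480 to 569: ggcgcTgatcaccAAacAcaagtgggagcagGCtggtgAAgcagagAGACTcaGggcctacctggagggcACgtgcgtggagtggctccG

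H2-D1 coding bases 489 to 578: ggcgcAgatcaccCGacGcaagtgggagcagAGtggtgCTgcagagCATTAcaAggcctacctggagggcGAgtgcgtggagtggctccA

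The reference genome is that of C57BL/6J, and the class I alleles of these mice were not given. The values are therefore reads assigned to the reference copies. FPKM values that were not whole reads made up 78.6% of the values above 0 for H2-K1 and 87.9% for H2-D1, against 5% for B2m and a median of 47.04% over all genes of a cell. Between 13.7% (Psmb9) and 51.5% (Psmb8) were found for the remaining 5 genes.

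The levels of the 8 transcripts spanned a wide range and fell into a clear order at the top. Over all 140 cells, mean log2(FPKM + 1) was 11.07 ± 2.65 (SD) for B2m, 8.48 ± 3.03 for H2-D1, 5.44 ± 3.51 for H2-K1, 4.28 ± 3.31 for Psmb8 and 3.10 ± 3.16 for Tapbp. Tap2 (1.47 ± 2.40), Psmb9 (1.42 ± 2.32) and Tap1 (1.28 ± 2.28) were lowest. B2m lay above H2-D1 and H2-D1 above H2-K1 in all 9 combinations of group and plate, and H2-D1 exceeded H2-K1 in 137 of 140 cells. H2-K1 exceeded Psmb8 in 8 of 9 combinations, Psmb8 exceeded Tapbp in 8, and Tapbp exceeded Tap2 in 9. Tap2, Psmb9 and Tap1 could not be ordered, since each passed the next in 5 and 4 of the 9.

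**Figure D1:**
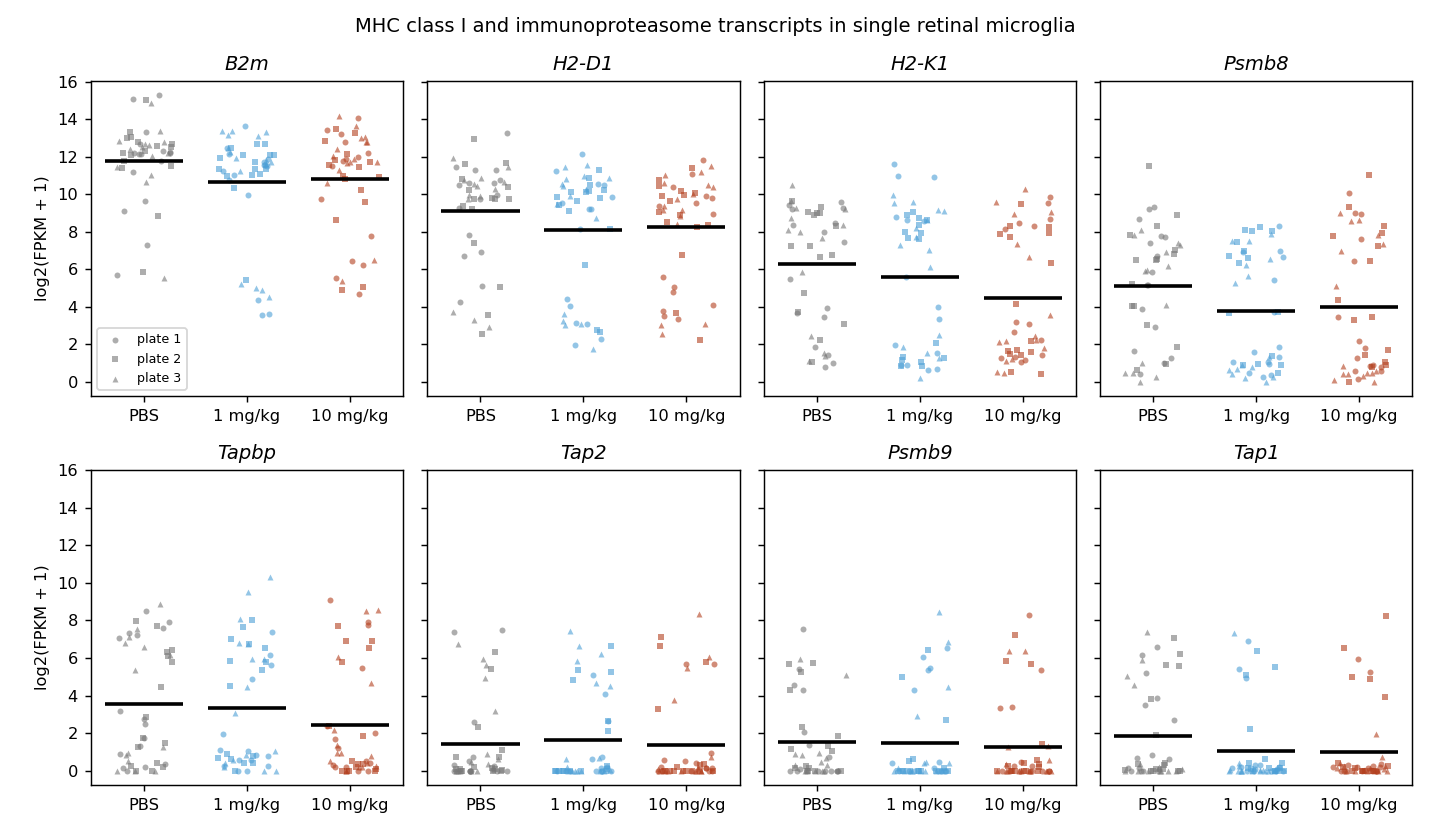
Log2(FPKM + 1) of the 8 transcripts (vertical axis) in single cells by group (horizontal axis), ordered by mean level. Each point is a cell, its shape gives the plate, and bars are means over 46 PBS, 47 low-dose and 47 high-dose cells. H2-K1, Psmb8 and Tapbp split into high and low cells, and B2m reached an FPKM of at least 10.9 in every cell.

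B2m encodes the light chain that every classical class I molecule needs. It ran from 44.6 to 39562 FPKM in PBS cells (median 4823), from 10.9 to 12522 in 1 mg/kg cells (median 3155) and from 24.5 to 18792 in 10 mg/kg cells (median 3400). All 3 groups overlapped over most of their range. B2m was under 100 FPKM, a cut chosen after the values were seen, in 3 of 46 PBS, 8 of 47 low-dose and 8 of 47 high-dose cells. Only in the low-dose group did a wide gap set these cells apart. Those 19 cells had a median of 1595 detected genes, against 2638 in the other 121.

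H2-D1 encodes 1 of the classical heavy chains. Its values were 4.83 to 9792 FPKM in PBS cells (median 1000.1), 2.33 to 4564 in 1 mg/kg cells (median 789) and 3.72 to 3696 in 10 mg/kg cells (median 659). H2-D1 was under 100 FPKM in 8 PBS, 14 low-dose and 12 high-dose cells, and 12 of these 34 cells were also under 100 FPKM for B2m. On plates 1, 2 and 3 the low cells were 2 of 16, 3 of 16 and 3 of 14 at PBS, 6 of 15, 3 of 16 and 5 of 16 at the low dose, and 7 of 15, 2 of 16 and 3 of 16 at the high dose, so that plate 1 held most of them at the high dose. In the cells at 100 FPKM or more, mean log2(FPKM + 1) was 10.25 ± 1.398 (38 PBS), 10.14 ± 0.93 (33 low-dose) and 9.80 ± 1.08 (35 high-dose).

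H2-K1 encodes the second classical heavy chain, and it was the member whose mean log2(FPKM + 1) differed most between 10 mg/kg and PBS. It ran from 0.731 to 1450 FPKM in PBS cells (median 189), from 0.157 to 3145 in 1 mg/kg cells (median 154) and from 0.34 to 1239 in 10 mg/kg cells (median 5.24). The groups overlapped, but the middle cell of the high dose was a low one while those of the other 2 groups were high. H2-K1 reached 10 FPKM in 35 of 46 PBS cells (76.1%), 28 of 47 low-dose cells (59.6%) and 21 of 47 high-dose cells (44.7%). Cells at 100 FPKM or more were alike in level, with mean log2(FPKM + 1) of 8.66 ± 0.89 (27 PBS), 8.82 ± 1.14 (25 low-dose) and 8.69 ± 0.83 (17 high-dose). The choice of cells above a floor fixes part of that likeness.

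Psmb8 encodes the immunoproteasome subunit that takes the place of Psmb5. It reached 2858 FPKM in PBS cells (median 60.4), 312 in 1 mg/kg cells (median 11.7) and 2066 in 10 mg/kg cells (median 3.51), with 1, 1 and 2 cells listed at 0. It was detected in 39 of 46 PBS cells (84.8%, exact Clopper-Pearson 95% interval 71.1 to 93.7), 31 of 47 low-dose cells (66.0%, 50.7 to 79.1) and 29 of 47 high-dose cells (61.7%, 46.4 to 75.5). Where it was detected, the median was 90.8 FPKM in PBS, 92.0 in 1 mg/kg and 151 in 10 mg/kg cells. At this threshold Psmb8 was thus found in fewer of the dosed cells, while its median where found was no lower than in PBS. The share differed from PBS by -18.8 points at the low and -23.1 at the high dose. Medians over all genes detected in at least 25% of the cells of any group were -6.38 and -11.2 points. With any FPKM above 0, Psmb8 was found in 97.8% of PBS, 97.9% of low-dose and 95.7% of high-dose cells.

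Psmb9 encodes the subunit that takes the place of Psmb6. Its median was 0.306 FPKM in PBS cells and 0 in both dosed groups, with highest values of 188, 349 and 316 FPKM at PBS, 1 mg/kg and 10 mg/kg. It was detected in 17 PBS cells (36.96%, 23.2 to 52.5), 12 low-dose cells (25.5%, 13.9 to 40.3) and 12 high-dose cells (25.5%, 13.9 to 40.3). The intervals of the 3 groups overlapped.

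The transporter subunits were found in a minority of cells. Tap1 was detected in 16 PBS cells (34.8%, 21.4 to 50.2), 8 low-dose cells (17.02%, 7.65 to 30.8) and 8 high-dose cells (17.02%, 7.65 to 30.8), and reached 167, 159 and 297 FPKM. Tap2 was detected in 12 PBS cells (26.1%, 14.3 to 41.1), 15 low-dose cells (31.9%, 19.1 to 47.1) and 10 high-dose cells (21.3%, 10.7 to 35.7), and reached 178, 172 and 326 FPKM. At this threshold Tap2 thus showed no lower share at the low dose. With any FPKM above 0 it was found in 63.0% of PBS cells and 53.2% of low-dose cells. Tapbp was detected in 30 PBS cells (65.2%, 49.8 to 78.6), 26 low-dose cells (55.3%, 40.1 to 69.8) and 21 high-dose cells (44.7%, 30.2 to 59.9), with medians of 5.19, 1.14 and 0.685 FPKM.

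Shares depend on depth, so they were also taken with each cell thinned to 300000 reads, as the expected share of cells with at least 1 read. This left out 5 PBS cells, 1 at the low and 3 at the high dose. Psmb8 was then found in 87.9% of PBS, 77.6% of 1 mg/kg and 73.3% of 10 mg/kg cells, and Tap1 in 44.7%, 25.6% and 28.3%. Tapbp was found in 71.3%, 68.2% and 56.2%, Psmb9 in 42.9%, 30.6% and 31.7%, and Tap2 in 38.1%, 37.1% and 30.7%. The order of the groups for Psmb8 and Tapbp was that of the unthinned shares. For Tap2 the low dose was no longer above PBS.

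The first comparison asked how the high dose differed from PBS. All 8 transcripts had lower means in 10 mg/kg cells than in PBS cells, H2-K1 by the most on the log2 scale. A mean below that of PBS was common, since 81.4% of the 4806 genes tested (those detected in at least 25% of the cells of any group) had one. The median difference of mean log2(FPKM + 1) was -0.93 over the 8 transcripts and -0.43 over all tested genes. On all 3 plates, 7 of 8 were lower, against 41.1% of tested genes. A difference of -1 or lower that was negative on every plate was found for 3 of 8, namely H2-K1, Psmb8 and Tapbp, against 13.4% of tested genes. None of the 8 was higher by 1 or more, which 0.0624% of tested genes were on every plate.

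H2-K1 averaged 4.49 ± 3.45 in 10 mg/kg cells (SD over cells, n = 47) and 6.29 ± 3.15 in PBS cells (n = 46), a difference of -1.80, with -1.02, -2.18 and -2.22 on plates 1, 2 and 3. Of all tested genes, 1.06% had a difference at least as low. Psmb8 averaged 3.97 ± 3.64 in 10 mg/kg and 5.13 ± 3.07 in PBS cells (-1.16, and -1.61, -0.92 and -0.87 by plate). For Tapbp the means were 2.43 ± 3.05 at the high dose and 3.56 ± 3.17 in PBS (-1.13, and -1.05, -0.84 and -1.49 by plate). These differences are smaller than the SD between cells of a group.

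B2m differed by -0.99 (-1.30, -1.34 and -0.38 by plate) and H2-D1 by -0.88 (-1.93, -0.36 and -0.38), so plate 1 held most of the H2-D1 difference, which was -0.37 without that plate. Tap1 differed by -0.87 (-1.05, -0.13 and -1.43). The 2 smallest differences were those of Psmb9 (-0.27, and -0.20, -0.45 and -0.09) and Tap2 (-0.08, and -0.24, 0.40 and -0.51). In mean FPKM, which the highest cells dominate, the 10 mg/kg value was 1.44 times that of PBS for Psmb9, 1.13 times for Tap2, 0.961 times for Psmb8, 0.775 times for Tapbp, 0.631 times for H2-K1, 0.62 times for B2m and 0.567 times for H2-D1, so on this scale H2-K1 was not the farthest from PBS. Without plate 2, 5 of 8 passed -1, H2-D1 and Tap1 among them.

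The number of detected genes moved with these differences. After adjustment for it, the median over the 8 was -0.32, against -0.053 over all tested genes. H2-K1 (-1.0) alone then reached -1, with Psmb8 at -0.56 and Tapbp at -0.31. Among cells in the range of detected genes shared by all groups (31 PBS cells, 26 cells at 1 mg/kg and 29 at 10 mg/kg), H2-K1 differed by -1.66, Psmb8 by -1.55 and Tapbp by -0.64, while B2m (-0.24), H2-D1 (-0.14) and Tap2 (-0.15) were near 0 and Psmb9 was at 0.42. Without the cells that held 3 rod markers, H2-K1 differed by -1.89, Psmb8 by -1.40 and Tapbp by -1.15, as large as with them. The part of detected genes in the differences was not tested further.

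**Figure D2:**
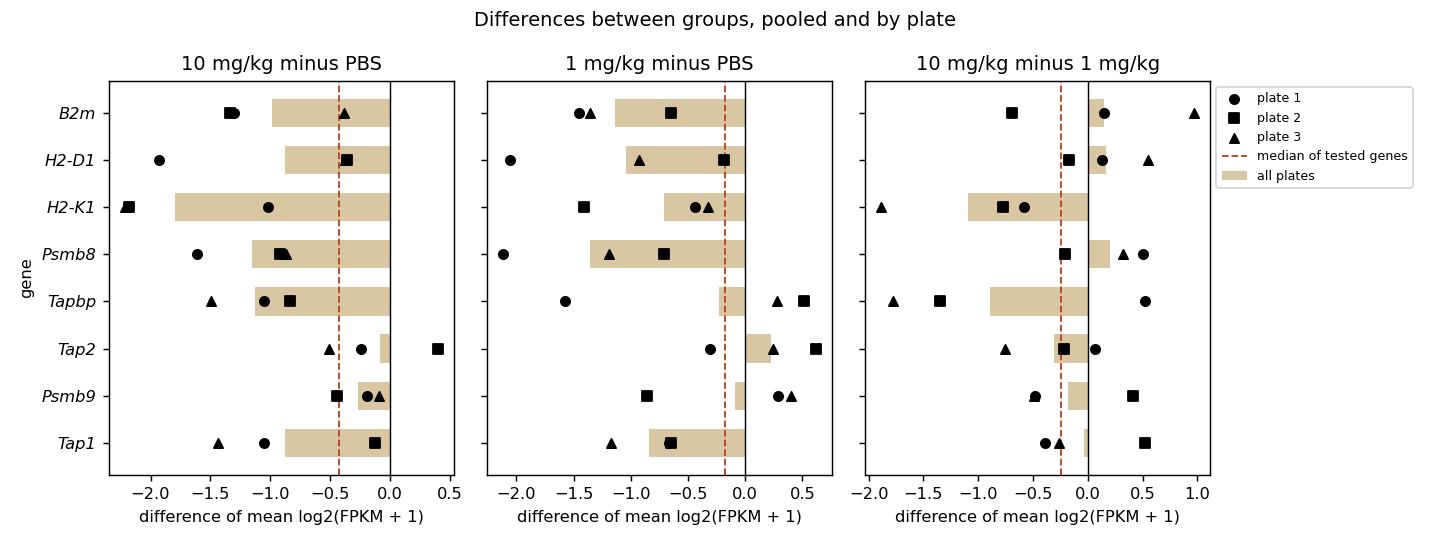
Differences of mean log2(FPKM + 1) between groups (horizontal axis) for each transcript (vertical axis). Bars are all kept cells, symbols are single plates, and the dashed line is the median of 4806 tested genes. At the high dose against PBS all 8 bars are negative, H2-K1 at -1.80, and at the high against the low dose H2-K1 alone is below -1.

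The second comparison set the low dose against PBS. Here 7 of 8 transcripts were lower, against 64.7% of tested genes, with a median difference of -0.77 for the 8 and -0.18 for all. Those at -1 or lower and negative on every plate were again 3, against 4.93% of tested genes, but H2-K1 was not among them. Psmb8 averaged 3.77 ± 3.10 in 1 mg/kg cells and 5.13 ± 3.07 in PBS cells (-1.36, and -2.12, -0.71 and -1.19 by plate). B2m averaged 10.65 ± 2.90 in 1 mg/kg and 11.78 ± 2.20 in PBS cells (-1.13, and -1.45, -0.65 and -1.36). H2-D1 averaged 8.08 ± 3.34 in 1 mg/kg and 9.13 ± 2.80 in PBS cells (-1.05, and -2.06, -0.19 and -0.93). Without plate 1, H2-D1 differed by -0.56 and Psmb8 by -0.99, and B2m alone of the 8 passed -1.

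Tap1 differed by -0.84 and H2-K1 by -0.71 between 1 mg/kg and PBS cells, each lower on all 3 plates. In mean FPKM, however, the 1 mg/kg value of H2-K1 was 1.21 times that of PBS, while it was 0.608 times for Tap1 and 0.394 times for Psmb8. In all, 5 of 8 were lower on every plate, against 24.3% of tested genes. Tapbp (-0.23) and Psmb9 (-0.09) had plates of both signs, and Tap2 was higher by 0.23. None of the 8 was higher by 1 or more, against 0.52% of tested genes. Within the shared range of detected genes, Psmb8 still differed by -1.26, but B2m (-0.17) and H2-D1 (-0.0023) were near 0, Tap1 was at 0.15, and the median over the 8 was 0.07, against 0.26 over all tested genes. Both doses were compared with the same PBS cells, so their values are not independent of each other.

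The third comparison set the high against the low dose. H2-K1 was lower at 10 mg/kg, with 4.49 ± 3.45 in 10 mg/kg and 5.58 ± 3.74 in 1 mg/kg cells (-1.09, and -0.58, -0.77 and -1.89 by plate). It was the 1 transcript of 8 that differed by -1 or more on this scale with every plate negative, against 5.66% of tested genes. Of the 8, 5 were lower, against 72% of tested genes, with a median of -0.11 against -0.24 for all tested genes. Tapbp followed with -0.90, but was higher by 0.52 on plate 1. B2m (0.14), H2-D1 (0.17) and Psmb8 (0.20) were higher at the high dose, each with 1 plate of the opposite sign. In mean FPKM, the 10 mg/kg value of Psmb8 was 2.44 times that of 1 mg/kg. No transcript other than H2-K1 had 1 sign on all 3 plates. Without plate 3, H2-K1 differed by -0.68 and no transcript passed -1, while without plate 1 both H2-K1 (-1.33) and Tapbp (-1.56) did. Without the cells that held 3 rod markers, H2-K1 differed by -0.76.

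A set of cells had little H2-K1 beside much H2-D1. H2-K1 was under 100 FPKM in 71 cells, of which 31 were also under 100 FPKM for H2-D1, so low H2-K1 often came with low H2-D1. The log2 ratio of H2-K1 reads to H2-D1 reads had 2 wide gaps, from -6.35 to -4.80 and from 0.09 to 6.48. Below the first gap lay 30 cells, here called H2-K1-poor, in which H2-K1 reads were 0.196% of H2-D1 reads in the median and 1.22% at most. Their H2-K1 ran from 0.34 to 11.7 FPKM, and their H2-D1 from 73.6 to 9792 FPKM. Above the second gap lay 3 cells with little H2-D1, at 7.74 to 15.5 FPKM beside 733 to 3145 FPKM of H2-K1, and all 3 held at least 3 rod markers. In the other 107 cells H2-K1 was 31.2% of H2-D1 in the median. The gaps were chosen after the values were seen.

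**Figure D3:**
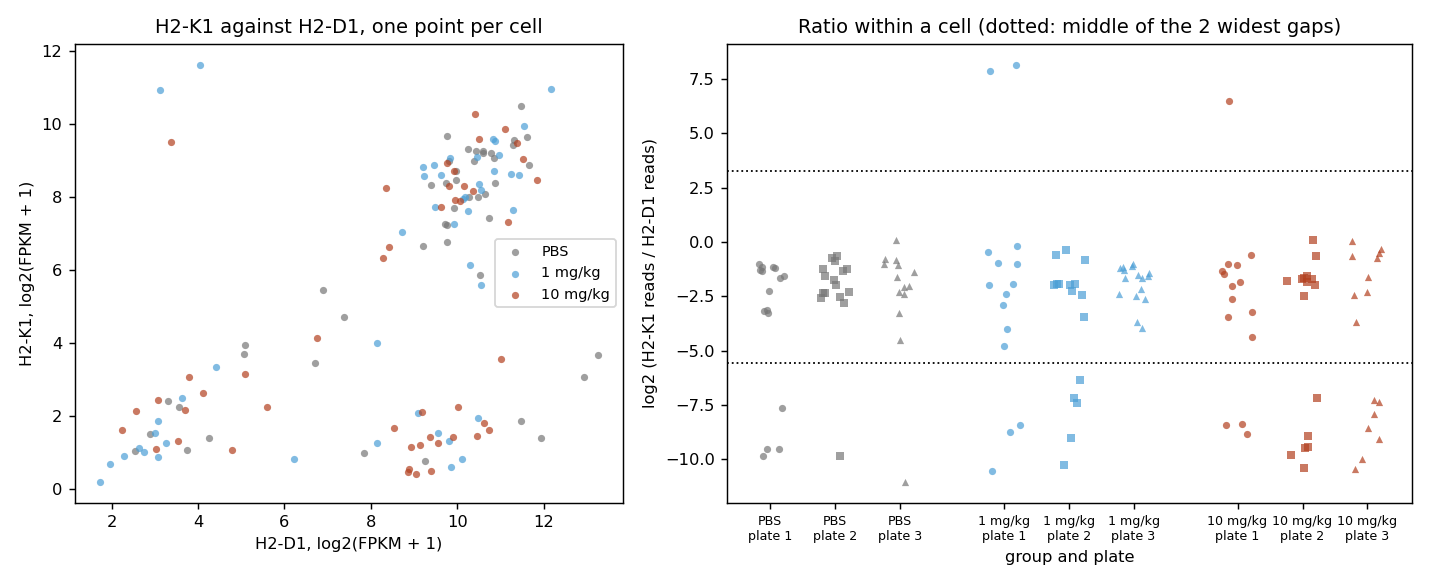
Left, H2-K1 (vertical axis) against H2-D1 (horizontal axis), both as log2(FPKM + 1), one point per cell, coloured by group. Right, the log2 ratio of H2-K1 to H2-D1 reads (vertical axis) by group and plate, with dotted lines in the middle of the 2 widest gaps. The lower band holds the 30 H2-K1-poor cells, with 6 cells from PBS, 8 from 1 mg/kg and 16 from 10 mg/kg.

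H2-K1-poor cells were most frequent at the high dose. They made up 6 of 46 cells at PBS (13.04%, 4.94 to 26.3), 8 of 47 at 1 mg/kg (17.02%, 7.65 to 30.8) and 16 of 47 at 10 mg/kg (34.04%, 20.9 to 49.3). The intervals overlap, and the plates differed in direction. At 10 mg/kg they were 3 of 15, 6 of 16 and 7 of 16 on plates 1, 2 and 3, against 4 of 16, 1 of 16 and 1 of 14 for PBS. On plate 1 the share was thus lower at the high dose. At 1 mg/kg they were 3 of 15, 5 of 16 and 0 of 16. Without plate 1, the shares were 40.6% at the high dose and 6.67% in PBS. Without plate 3, they were 29.03% at the high and 25.8% at the low dose.

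A cell with little H2-D1 cannot show this pattern, so the share was also taken over cells with H2-D1 at 100 FPKM or more. It was then 6 of 38 at PBS (15.8%, 6.02 to 31.3), 7 of 33 at 1 mg/kg (21.2%, 8.98 to 38.9) and 16 of 35 at 10 mg/kg (45.7%, 28.8 to 63.4). Without cells that held 3 rod markers, it was 30.6% of 36 high-dose and 12.5% of 40 PBS cells, and with at least 2000 detected genes 30.8% of 26 and 7.89% of 38.

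Among the 107 other cells, the mean log2 ratio of H2-K1 to H2-D1 reads was -1.79 ± 0.92 in 40 cells at PBS, -1.93 ± 1.07 in 37 at 1 mg/kg and -1.68 ± 1.09 in 30 at 10 mg/kg. These means differ by less than the spread between cells. With the H2-K1-poor cells left out, Psmb8 differed between the high dose and PBS by -0.30 in place of -1.16, and between the high and the low dose by 1.164 in place of 0.20. By plate, the -0.30 was made up of -1.10, 0.67 and -0.45. For the high dose against PBS, Tapbp then differed by -0.98 in place of -1.13, Tap1 by -0.74 in place of -0.87 and B2m by -0.71 in place of -0.99. Tap2 changed from -0.08 to 0.016 and Psmb9 from -0.27 to 0.099. The H2-K1 and H2-D1 differences without these cells (-0.87 and -1.27 for the high dose against PBS) follow in part from the ratio that chose them. H2-K1 at 10 FPKM or more was 31.4 percentage points less frequent at the high dose than in PBS. Of the 318 tested genes within 10 points of its share in PBS, 1.26% differed by as much or more, H2-K1 included. The difference in this share was -16.5 points between 1 mg/kg and PBS, which 11.3% of those 318 genes reached, and -14.9 points between the doses, which 23.1% of 441 such genes reached.

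H2-K1-poor cells held fewer of the other transcripts of the pathway. Psmb8 was detected in 50% of them and in 77.6% of the 107 other cells, Tapbp in 30% and 62.6%, Tap2 in 10% and 31.8%, Tap1 in 6.67% and 28.04%, and Psmb9 in 13.3% and 34.6%. They also had fewer detected genes, with a median of 2091 against 2978. In the lowest range of detected genes (1006 to 1984), H2-K1-poor cells held 0.769 ± 0.725 of these 5 transcripts (13 cells) and other cells 0.839 ± 0.688 (31 cells). In the middle range (1987 to 3513) they held 1.4 ± 1.24 (15 cells) and the others 2.26 ± 1.18 (31 cells). Only 2 H2-K1-poor cells fell in the highest range. With group and plate means removed and adjusted for detected genes, H2-K1-poor cells differed from the others by -0.72 in Psmb8, -0.54 in Tapbp and -0.10 in B2m on the log2 scale. H2-D1, which the ratio used, was 2.08 higher in them.

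The number of the 8 transcripts found in a cell followed its number of detected genes. PBS cells held 5.46 ± 1.57 of the 8, 1 mg/kg cells 4.81 ± 1.65 and 10 mg/kg cells 4.62 ± 1.54. All 8 were found together in 6 PBS, 4 low-dose and 2 high-dose cells. Within the lowest range of detected genes the means were 3.75 in PBS, 3.63 in 1 mg/kg and 3.70 in 10 mg/kg cells. In the middle range they held 5.06, 4.30 and 4.94, the low dose being farthest from PBS, and in the highest range (3545 to 9077) 6.5, 6.33 and 6.0. The lowest range held 8 of the PBS, 19 of the 1 mg/kg and 20 of the 10 mg/kg cells.

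**Figure D4:**
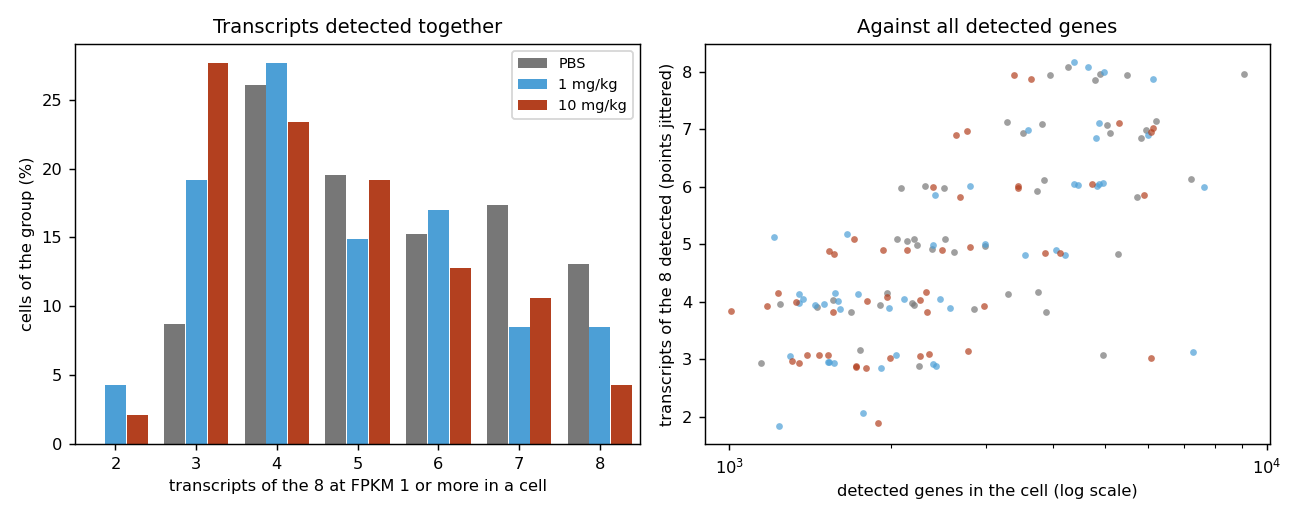
Left, the percentage of cells in each group (vertical axis) by how many of the 8 transcripts were detected (horizontal axis). Right, that number against all detected genes of the cell on a log axis, one point per cell. Cells with 3 or fewer transcripts were 4 of 46 PBS, 11 of 47 low-dose and 14 of 47 high-dose cells, and cells with more detected genes held more of the 8.

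The transcripts were weakly but broadly correlated across cells. With group and plate means removed, Spearman correlations over 140 cells were all positive among the 28 pairs, with a median of 0.28, against 0.125 over all pairs of tested genes. Adjusted for detected genes, 27 of 28 were positive with a median of 0.17, against 68.1% of all pairs and a median of 0.047. The strongest were H2-K1 with H2-D1 (0.46), H2-K1 with Psmb8 (0.39), H2-D1 with B2m (0.37), H2-D1 with Psmb8 (0.34) and Tap1 with Tap2 (0.33). The groups differed in these values. H2-K1 with H2-D1 was at 0.63 in PBS, 0.55 in 1 mg/kg and 0.22 in 10 mg/kg cells, and H2-K1 with Psmb8 at 0.35, 0.15 and 0.64. The cells share depth and plate, reads of H2-K1 and H2-D1 share sequence, and no p is given.

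**Figure D5:**
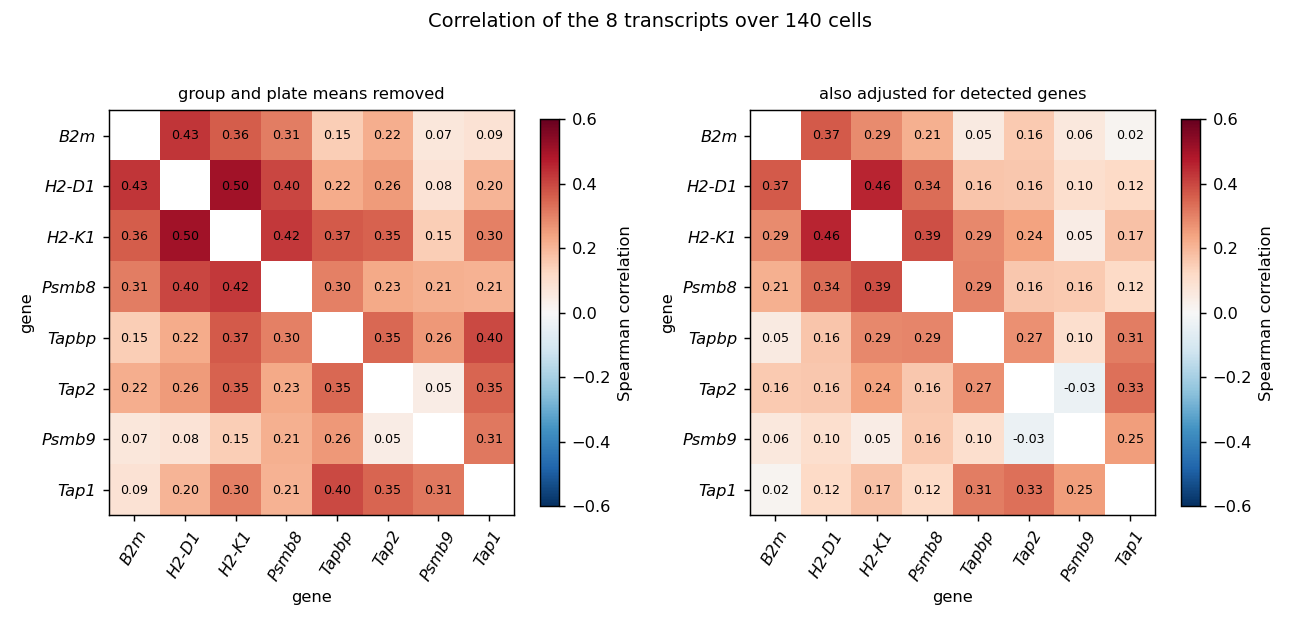
Spearman correlations between the 8 transcripts (both axes) over 140 cells, with group and plate means removed (left) and also adjusted for detected genes (right). Colour runs from -0.6 (blue) to 0.6 (red). The strongest values lie among B2m, H2-D1, H2-K1 and Psmb8, up to 0.46 after adjustment. Not all pairs of these were strong, with B2m and Psmb8 at 0.21, below Tap1 and Tap2 (0.33).

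Tap1 and Psmb9, whose promoter windows overlap, were found together in 20 cells. Psmb9 was detected in 62.5% of the 32 cells with Tap1 and in 19.4% of the 108 without. For Tap2, which starts farther along the cluster, the figures were 68.8% and 13.9%. Cells with Tap1 had a median of 4722 detected genes and those without 2163. The adjusted correlation was 0.25 for Tap1 with Psmb9 and 0.33 for Tap1 with Tap2. By group, the first was 0.25 in PBS, 0.37 in 1 mg/kg and 0.18 in 10 mg/kg cells and the second 0.38, -0.0066 and 0.62, so their order was not the same in every group.

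The genes most like the mean of the 8 over 140 cells were their relatives and an overlapping gene, Gm20496. The 10 highest adjusted Spearman correlations were those of H2-Q1 (0.67), H2-Q2, Gm20496, H2-Q10, Gm8909, H2-Q4, Gm7030, H2-Q5, Gm11127 and H2-T22 (0.51), against a median of 0.068 over all tested genes. All 10 share at least one 50-base word with a member, so shared reads can enter these values. With such genes left out, as decided after seeing this, the highest were Laptm4a (0.48), a lysosomal membrane protein, Ly6e (0.47), an interferon-induced surface protein, Pld4 (0.46), a nuclease of microglia, and Grn (0.45), progranulin. Gm20708, Mir6983, the lysosomal Psap and Laptm5, Pltp and the microglial receptor Csf1r (0.41) followed.

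The rest of the pathway was described by 6 lists. Their counts stand beside those of all tested genes, of which 81.4% were lower at the high dose than in PBS, 64.7% at the low dose than in PBS and 72% at the high than at the low dose. The shares at -1 or lower on every plate were 13.4%, 4.93% and 5.66% in these 3 comparisons, and the medians -0.43, -0.18 and -0.24. Peptide trimming and loading genes were mostly lower in 10 mg/kg than in PBS cells, with 11 of 12 tested below 0 and 4 at -1 or lower on all plates, against 13.4% of all tested genes, and a list median of -0.82. Psme2, a subunit of the proteasome activator, averaged 4.17 in 10 mg/kg and 6.08 in PBS cells (-1.91). Pdia3, the disulphide isomerase of the loading complex, averaged 5.45 in 10 mg/kg and 7.19 in PBS cells (-1.74), and the peptidase Nrdc differed by -1.30. Psme1, the partner of Psme2, had 4.604 in 10 mg/kg and 4.57 in PBS cells. At the low dose 9 of 12 were below PBS and none passed -1 on all plates, while between the doses 10 of 12 were lower at the high dose, with the proteasome assembly factor Pomp at -1.16.

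Other class I and class I-like genes were lower in 10 mg/kg than in PBS cells in 13 of 13 tested, 5 of them by at least 1 on every plate, with a median of -0.73, against 81.4% lower and 13.4% past -1 among all tested genes. H2-Q6 differed by -2.02, H2-T23, which encodes the heavy chain of Qa-1, by -1.82, and Fcgrt, the neonatal Fc receptor, by -1.53. At the low dose 12 of 13 were lower than in PBS (64.7% of all), with H2-Q6 at -1.67. Between the doses 11 of 13 were lower at the high dose (72% of all) and none passed -1 on all plates. The H2-Q genes share sequence with H2-K1 and H2-D1.

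The constitutive 20S core, which the immunoproteasome subunits enter in exchange, was lower too. Of 14 tested subunits 14 were below PBS at the high dose, 8 at -1 or lower on all plates (13.4% of all tested genes), with a median of -1.18 against -0.43 for all tested genes. Psmb2 averaged 4.0 in 10 mg/kg and 5.93 in PBS cells (-1.93), Psma1 differed by -1.47 and Psma6 by -1.44. The core was thus at least as far from PBS as the median of the 8 transcripts (-0.93). At the low dose 11 of 14 were lower than in PBS, with Psmb3 (-1.41) and Psma7 (-1.24) past -1, and Psma1 (-1.16) and Psmb2 (-1.12) were past -1 between the doses.

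Of 9 tested regulators of the pathway, 6 were lower in 10 mg/kg than in PBS cells, a smaller share than the 81.4% of all tested genes, and 4 passed -1 on every plate, against 13.4%. Ifnar2, a chain of the type I interferon receptor, had means of 1.251 at the high dose and 3.07 in PBS (-1.82). Irf1, a factor that drives class I genes, was detected in 10.6% of 10 mg/kg and 39.1% of PBS cells (-1.40), and the myeloid factor Irf8 differed by -1.29. The list median was -0.11, and 3 members were above 0. At the low dose Ifngr1, a chain of the interferon gamma receptor, differed from PBS by -1.34, and between the doses Ifnar2 (-1.36) and the NF-kB subunit Rela (-1.04) were lower at the high dose.

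Interferon-induced genes outside the pathway were lower in 15 of 19 at the high dose than in PBS, near the 81.4% of all tested genes, with a median of -0.50 against -0.43. Ifi27l2a differed by -2.06, Ly6e by -1.21 and the RNA sensor Oas1a by -1.15. At the low dose 16 of 19 were lower than in PBS (64.7% of all), led by Ifitm3 (-1.97) and Oas1a (-1.41). Between the doses 7 of 19 were lower at the high dose (72% of all), with a median of 0.09 against -0.24, and Ifi27l2a differed by -1.62.

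MHC class II genes, which serve CD4 T cells, did not move as 1 group. In 10 mg/kg against PBS cells 5 of 8 tested were lower (81.4% of all) with a median of -0.25 against -0.43, and H2-DMb2 (-1.10) passed -1. At the low dose H2-DMa differed from PBS by -1.51 and the invariant chain Cd74 by -1.33. Between the doses Cd74 (1.13) and H2-Ab1 (1.10) were higher at 10 mg/kg on every plate, against 0.479% of tested genes at 1 or higher, while the peptide exchange subunits H2-DMb1 (-1.67) and H2-DMb2 (-1.48) were lower. H2-K1 (-1.09) and Cd74 thus had opposite signs in this comparison.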

How the data were processed

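The authors deposited FPKM values for 55364 genes in each cell, with a gene length in bases in another column, the deposited value by which FPKM is scaled. Per the submitters' processing notes, reads were handled with featureCounts 1.6.1, STAR 2.7.2b, cutadapt 1.16, Trimmomatic 0.36 and Trim Galore 0.4.4 on GRCm38.p6 (mm10). Whether strand was used, and the settings, is not given in the sources used here. Per the labels' protocols, cDNA of each sorted cell was amplified in its tube and tagmented with Nextera XT, and no molecular identifiers were named. Reads per cell were recovered by taking the most frequent positive product of FPKM and length as 1 read. A value counted as whole within 0.01 read, and many were not, so no count model was used.

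A gene was detected from an FPKM of 1 upwards, and the 140 cells with 1000 or more detected genes were kept. Each library came from 1 sorted cell, and doublets were not called. A difference is that of mean log2(FPKM + 1) over kept cells and understates changes of low genes. Genes detected in at least 25% of the cells of any group (4806) were the background. Named genes were the 8 members, in each list the 3 with the largest difference past 1 on all 3 plates in each direction and comparison, and the 10 most like the mean of the members' z scores. Other genes named were chosen after their values were seen, as was the FPKM of 100 used to split cells. The members and lists were chosen with earlier results of these data known. Shares carry exact Clopper-Pearson 95% intervals. Adjustment for detected genes used a linear fit on their log10, and motifs were searched by exact letters. Of the 8 members, 7 had RefSeq promoter windows, by symbol. Coding sequences are the longest open reading frames of H2-K1-201 and H2-D1-202 in GENCODE M21, aligned with Biopython 1.88. Python 3.11.15, numpy 2.4.6, pandas 2.3.3, scipy 1.17.1 and matplotlib 3.10.9 were used, and the calculations were tested on simulated data.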

Additional observations from a re-analysis of the deposited data

How the results depend on the processing

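The median difference of the 8 transcripts at the high dose against PBS kept its sign under every alternative tried. It was -1.19 with a pseudocount of 0.1 and -0.57 with 10, -0.43 in cells with at least 2000 genes (5 of 8 lower), -0.48 as the log2 ratio of mean FPKM, -0.32 adjusted for detected genes and -0.30 in their common range. Over all tested genes the medians in those settings were -0.74, -0.14, -0.16 (61.2% lower), -0.054, -0.053 and -0.12. Without plate 2 it was -1.20. Transcripts at -1 or lower on every plate numbered 1 with a pseudocount of 10, with at least 2000 genes, adjusted or in the common range, 0 as the ratio of means and 5 without plate 2. The median difference in the share of cells, in points, was -8.88 for the 8, against -11.2 over all tested genes. For the 8 it was -3.03 for any FPKM above 0, -3.74 with at least 2000 genes, -12.1 without plate 1 and -5.22 without plate 2. B2m and H2-D1 were detected in every kept cell, so their share differences were fixed at 0 and drew this median toward 0. Those of the other members ran from -4.81 (Tap2) to -23.1 (Psmb8).

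For the low dose against PBS, the median was -0.35 with a pseudocount of 10, -0.39 with at least 2000 genes, -0.36 as the ratio of means, -0.37 adjusted, and 0.073 in the common range, the opposite sign, with 4 of 8 lower. All tested genes then had a median of 0.26 with 31.7% lower, so the 8 were still below it. Transcripts past -1 numbered 1 with a pseudocount of 10, as the ratio of means, without plate 1, adjusted or in the common range, and 0 with at least 2000 genes. The share difference was -10.7, with B2m and H2-D1 again fixed at 0, against -6.38 over all tested genes. For the 8 it was 0 for any FPKM above 0 and -3.85 with at least 2000 genes.

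Between the doses the median changed sign without plate 1 (0.010) and when adjusted (0.12, 3 of 8 lower), and was -0.40 in the common range. The 1 transcript past -1 became 0 with a pseudocount of 10, with at least 2000 genes, as the ratio of means, without plate 3, adjusted or without rod-marker cells, and 2 without plate 1 or in the common range. The share difference was 0, with B2m and H2-D1 again fixed at 0, against -4.26 over all tested genes. For the 8 it was -6.38 at an FPKM of 10 or more and -3.23 without plate 2. The excess of H2-K1-poor cells at the low dose over PBS became -6.99 points without plate 2. Of the 10 genes most like the 8, 5 stayed without adjustment for detected genes. Since all 10 share a 50-base word with a member, leaving such genes out gives 0 by construction. Of 336 values of single transcripts under the alternatives, 292 moved by no more than the SD between plates. A move within that SD can still change a sign. The main sign was kept in 94 of 104 values for the high dose against PBS. It was kept in 90 of 104 for the low dose against PBS and 85 of 104 between the doses. Psmb9 at the low dose against PBS and Tap1 between the doses kept it in 7 of 13. The cause of these changes was not tested. No analysis paired by animal was possible because the labels name no animal and each group is 1 sample. By plate, which the groups share, the mean of within-plate differences gave H2-K1 -1.80, -0.72 and -1.08 for the high dose against PBS, the low dose against PBS and the high against the low dose, and changed no call of direction or count by more than 1.5 times. Kept cells had 30204 to 4668732 reads, so a transcript at 0 was not detected at the depth of its own cell.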
